A study of Mus musculus with 28 samples.

Results

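The tumour suppressor p53 is described here through the RNA of 10 genes: Trp53, which encodes p53 itself, its inhibitors Mdm2 and Mdm4, and 7 genes that p53 is known to activate, Cdkn1a, Ccng1, Gtse1, Sesn1, Trp53inp1, Sfn and Zmat3. They were chosen by name as a list of p53 and well-known p53 targets. Of these 10 genes, 10 were present in both deposited tables, among 15582 genes in the blastocyst table, 16745 in the morula table and 14332 in both.

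The study measured polyadenylated RNA in whole mouse embryos, 1 embryo per library, from the CD1 strain. Their Ctcf gene, coding for a DNA-binding protein that organises chromatin loops, differed in genotype between the groups. Blastocysts carried the genotype labels WT_flfl (3 embryos), het (4), M_KO (4) and MZ_KO (3), and morulae, the preceding stage, carried het (3), del (4) and MZKO (6). The labels do not spell out these codes, name no Cre driver and do not say which embryos shared a mother. The p-values therefore rest on the spread between these embryos and take each embryo as independent, which the labels do not establish. Sample titles give the prefix C7 to MZ_KO and M_KO blastocysts, N89 to the other blastocysts, C50 to MZKO morulae and N2 to the other morulae. For MZ_KO or M_KO against WT_flfl or het, and for MZKO against del or het, prefix and group cannot be told apart.

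Values are counts per 1000000 reads (CPM), recovered from the authors' log2 values. Blastocysts held 7377507 to 27884350 reads and morulae 1635553 to 20414013. Ctcf itself lay at 2.92 to 4.23 CPM in MZ_KO and 53.2 to 89.4 in M_KO blastocysts, against 91.6 to 102 in WT_flfl and 55.1 to 78.9 in het. In morulae Ctcf lay at 0 to 8.68 CPM in MZKO and 0 to 5.81 in del, against 26.1 to 54.6 in het. Markers of maternal tissue stood out in single embryos. Haemoglobin and other blood genes (6 genes) summed to 34490 CPM in blastocyst WT_flfl 1, 31487 in blastocyst het 6 and 15542 in morula het 1. Other embryos held less but were not free of it. The haemoglobin gene Hba-a2 lay at 738 to 3427 CPM in MZ_KO and 572 to 1600 in M_KO blastocysts, and at 1.16 to 49.9 in del morulae. The oviduct marker Ovgp1 reached 486 CPM in a het blastocyst. Oviduct markers (5 genes) summed to 2077 CPM in morula MZKO 1 and 1310 in morula het 1, against 6.23 to 321 in the other morulae. Because whole embryos were measured, fewer cells of a type and less RNA per cell cannot be told apart.

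In a resting cell p53 protein is made and destroyed continuously, because Mdm2 tags it for degradation and its relative Mdm4 blocks its activity. DNA damage and other stresses free p53 from both, and it then binds paired decamer motifs near its targets and switches on genes of cell cycle arrest, repair and cell death. Much of this control acts on the protein, so the RNA of Trp53 says little about p53 activity, while the RNA of targets such as Cdkn1a and Mdm2 is commonly read as its output. Mouse embryos that lack Mdm2 die around implantation unless p53 is removed as well.

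Promoter windows were taken from RefSeq, GRCm38.p6, as 250 bases before to 50 after an annotated start, and both strands were searched. Windows were found for 8 of the 10 genes (12 windows, since some have several starts), and for Trp53inp1 and Zmat3 none was found. The p53 response element, meaning a pair of decamers up to 13 bases apart with their cores intact and at most 3 mismatches, was matched in 5 of the 12 windows, in Trp53, Mdm4, Cdkn1a, Gtse1 and Sesn1, against 6.72% of all 32851 promoter windows. The best match had 0 mismatches in Cdkn1a, 1 in Gtse1, 2 in Sesn1 and 3, the limit, in Trp53 and Mdm4. The windows of Gtse1 overlap each other. The core of the CTCF motif, read as CCA, any 2 bases, AG, any 2 bases and GGC, was matched in 1 of the 12, that of Mdm2, against 2.43% of all windows. The Cdkn1a window is shown because Cdkn1a separated the blastocyst groups most widely. It lies 250 bases before the more upstream of its annotated starts (chr17:29090729-29090978, plus strand), 2790 bases from the other start, whose window held no match. Capitals mark 2 matches that share their middle decamer: the first pair has 0 mismatches and a spacer of 12 bases, the second has 1 mismatch and none.
Cdkn1a: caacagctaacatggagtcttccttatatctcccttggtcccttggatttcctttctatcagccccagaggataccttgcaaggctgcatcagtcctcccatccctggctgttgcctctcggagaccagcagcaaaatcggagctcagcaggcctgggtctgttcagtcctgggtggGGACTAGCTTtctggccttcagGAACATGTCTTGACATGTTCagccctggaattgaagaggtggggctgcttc
The Mdm2 window (chr10:117710759-117711008, minus strand) is shown because it alone among the members holds the CTCF core. Capitals mark 1 match on each strand, beginning 66 and 79 bases before the start. The known p53 sites of Mdm2 lie in its first intron, outside this window.
Mdm2: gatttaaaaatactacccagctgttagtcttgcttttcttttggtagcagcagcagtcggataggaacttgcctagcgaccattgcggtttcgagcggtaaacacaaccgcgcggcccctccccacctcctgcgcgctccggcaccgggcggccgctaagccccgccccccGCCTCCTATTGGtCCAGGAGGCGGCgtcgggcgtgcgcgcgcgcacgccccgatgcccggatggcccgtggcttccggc
A p53 element of Gtse1, the member that fell in MZ_KO blastocysts, lies at the second of its annotated starts (chr15:85859945-85859964, plus strand) and has 1 mismatch. Its later decamer also forms a pair with a further one (chr15:85859955-85859975), again with 1 mismatch, which is not printed in full. Capitals mark both decamers of the first pair.
Gtse1: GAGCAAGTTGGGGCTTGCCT
The Sfn window held neither motif. A match is a string of letters, and binding at these places was not measured here.

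Across blastocysts, RNA of Cdkn1a, Mdm2 and Trp53inp1 was higher in MZ_KO than in M_KO, RNA of Gtse1 was lower in MZ_KO than in WT_flfl and het, and for Trp53 itself no difference passed the test. In limma fits over the whole table, with Benjamini-Hochberg adjusted p under 0.05 as the threshold, 3 of the 9 members tested rose and 0 fell from M_KO to MZ_KO, where 11.8% of all 9585 genes passed, 3.74% rising and 8.09% falling. Against WT_flfl 0 rose and 1 fell of 9, where 13.2% of all genes passed, 4.84% rising and 8.36% falling. Against het 1 rose and 1 fell of 9, where 17.9% passed, 7.02% rising and 10.8% falling, so the shares against WT_flfl and het were close to those of genes at large. Zmat3 was too low for the test in blastocysts. These 3 comparisons share the MZ_KO embryos.

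**Figure D1:**
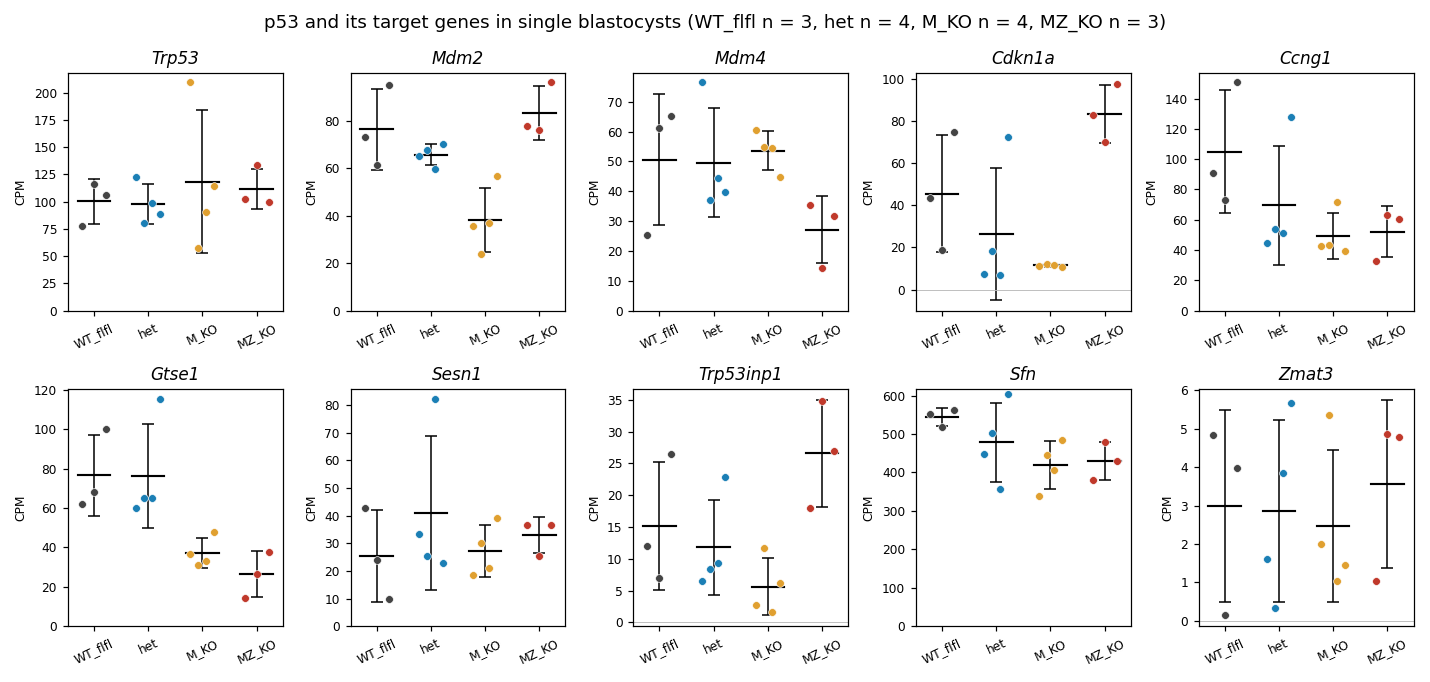
Level of each of the 10 genes in single blastocysts (CPM, linear axis), with 1 point per embryo and bars giving the mean and SD of each group (WT_flfl n = 3, het n = 4, M_KO n = 4, MZ_KO n = 3). The 3 MZ_KO embryos lie above the 4 M_KO embryos in the panels of Mdm2, Cdkn1a and Trp53inp1, and below the WT_flfl and het embryos in the panel of Gtse1.

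M_KO against WT_flfl and against het gave 0 called members, and limma called 0 of 9585 genes (0.0%) in either comparison, as did voom on the recovered reads. At an unadjusted p under 0.05, 6 of the 9 members were lower and 0 higher in M_KO than in WT_flfl, where 494 of 9585 genes (5.15%) passed in either direction. The 6 were Mdm2, Cdkn1a, Ccng1, Gtse1, Trp53inp1 and Sfn. The 4 M_KO and 3 WT_flfl embryos also differ in title prefix, so group and prefix cannot be told apart here. The smallest adjusted p among the 6 genes was that of Mdm2, 0.666, with a log2 fold change of −1.02 ± 0.25 (SE). Against het, Mdm2 (−0.83 ± 0.23) and Gtse1 (−0.98 ± 0.29) were lower at an unadjusted p under 0.05, which 6.66% of genes passed in either direction, with adjusted p of 0.597 and 0.633. Het against WT_flfl gave 0 called members and 0.0% of genes, with 0 members and 187 genes (1.95%) at an unadjusted p under 0.05.

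In morulae the one member that passed was Sfn, which was lower in MZKO than in het and in del. Of 10 members tested 0 rose and 1 fell against het, where 48 of 9953 genes (0.482%) passed, 0.412% rising and 0.0703% falling. Against del 0 rose and 1 fell, where 18 genes (0.181%) passed, 0.141% rising and 0.0402% falling. Del against het gave 0 members and 1 gene (0.01%) by limma and 0 genes by voom, with 2 members, Trp53 and Mdm2, higher at an unadjusted p under 0.05 where 5.05% of genes passed. The first 2 comparisons share the MZKO embryos.

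**Figure D2:**
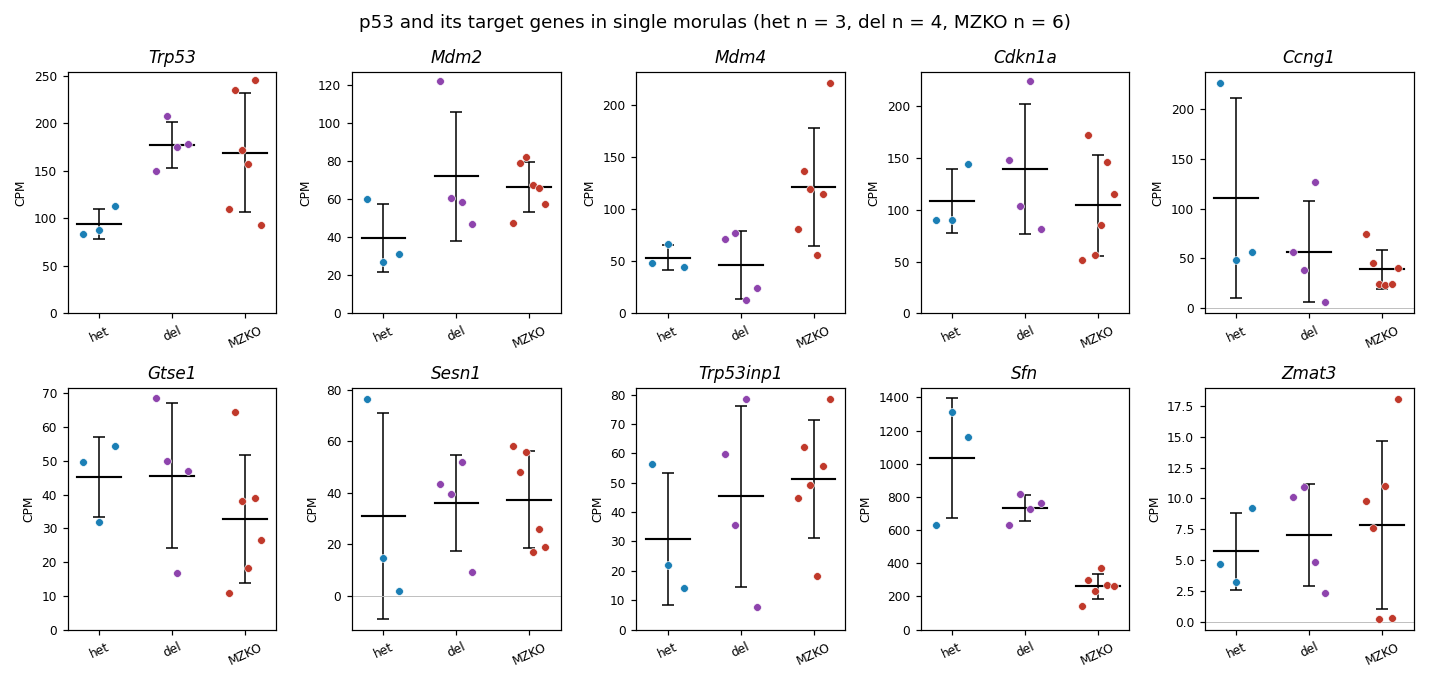
Level of each of the 10 genes in single morulae (CPM, linear axis), with 1 point per embryo and bars giving the mean and SD of each group (het n = 3, del n = 4, MZKO n = 6). In the panel of Sfn the 6 MZKO embryos, at 142 to 369 CPM, lie below the del and het embryos, and in the other panels MZKO overlaps at least 1 of those groups.

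Trp53 (ENSMUSG00000059552, chr11:69580359-69591873, plus strand; these and the positions below are from GENCODE M21 on GRCm38) encodes p53, the transcription factor that activates the targets. In blastocysts it measured 102, 133 and 99.7 CPM in MZ_KO 2, 6 and 7, and 210.0, 57.7, 90.5 and 115 in M_KO 1, 3, 4 and 5. It measured 77.2, 117 and 107 in WT_flfl 1, 7 and 9, and 123, 80.5, 98.7 and 88.6 in het 3, 5, 6 and 8. The groups overlapped throughout, with the highest and the lowest embryo both in M_KO. The log2 fold change of MZ_KO was 0.17 ± 0.33 (SE) against WT_flfl (adjusted p = 0.790), 0.20 ± 0.31 against het (0.704) and 0.06 ± 0.31 against M_KO (0.924). In morulae Trp53 measured 83.2, 87.7 and 112 CPM in het, 149, 208, 175 and 178 in del, and 93.1 to 246 in MZKO with a median of 164. All 4 del embryos and 4 of the 6 MZKO embryos lay above the highest het embryo, and MZKO 1 and 8 overlapped het. Neither difference passed: del minus het was 0.91 ± 0.33 (adjusted p = 0.774) and MZKO minus het 0.75 ± 0.31 (0.445). A processed pseudogene of Trp53 lies on chromosome 17 and was not listed in the tables, and reads shared with it would be uncertain.

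Mdm2 (ENSMUSG00000020184, chr10:117688875-117710758, minus strand) encodes the ubiquitin ligase that marks p53 for destruction and is itself a p53 target. It measured 77.6, 76.0 and 96.3 CPM in MZ_KO blastocysts and 35.5, 23.7, 37.1 and 56.5 in M_KO. It measured 72.9, 61.1 and 94.9 in WT_flfl and 65.1, 67.5, 59.7 and 70.3 in het. M_KO formed a low group on its own, with no embryo reaching the lowest of the other 10. Mdm2 rose from M_KO to MZ_KO by 1.16 ± 0.25 on the log2 scale (adjusted p = 0.00620). Against WT_flfl the difference was 0.14 ± 0.26 (adjusted p = 0.775), and against het 0.33 ± 0.25 (adjusted p = 0.378), although the 3 MZ_KO embryos lay above the 4 het embryos. In morulae het measured 59.9, 27.2 and 31.0 CPM, del 122, 60.4, 58.4 and 47.0, and MZKO 47.2 to 81.8 with a median of 66.6. Het 1 overlapped both other groups while het 5 and 7 lay below every del and MZKO embryo, and MZKO against het gave 0.80 ± 0.36 (adjusted p = 0.539), or 1.23 without het 1 and MZKO 1 (0.150).

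Mdm4 (ENSMUSG00000054387, chr1:132959484-133030561, minus strand) encodes the relative of Mdm2 that binds and blocks p53 without degrading it. It measured 35.4, 14.4 and 31.7 CPM in MZ_KO blastocysts. It measured 60.5, 54.7, 54.4 and 44.8 in M_KO, 25.3, 61.1 and 65.3 in WT_flfl, and 76.5, 37.1, 44.6 and 39.9 in het. MZ_KO embryos lay below all M_KO and het embryos, and WT_flfl 1 lay among them. The differences did not pass, at −1.04 ± 0.36 against M_KO (adjusted p = 0.0696), −0.88 ± 0.36 against het (0.101) and −0.85 ± 0.38 against WT_flfl (0.151). Without WT_flfl 1, the embryo with the most haemoglobin RNA, the last became −1.28 with an adjusted p of 0.0411. Without MZ_KO 6 it became −0.47 with an adjusted p of 0.482, and these are the ends of its range. In morulae the MZKO mean was on the other side of het, with 56.2 to 221 CPM and a median of 117 in MZKO against 48.8, 67.0 and 44.5 in het and 71.3, 77.3, 12.7 and 24.4 in del. MZKO 4 overlapped het and del, and the differences of 1.07 ± 0.50 against het (adjusted p = 0.564) and 1.58 ± 0.46 against del (0.260) did not pass. Nor did the difference between the stages in the effect against het, −1.94 ± 0.67 (adjusted p = 0.119). Processed pseudogenes overlap or match Mdm4; the one listed in the tables, Mdm4-ps, reached at most 8.22 CPM in a blastocyst and 7.46 in a morula.

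Cdkn1a (ENSMUSG00000023067, chr17:29090976-29100727, plus strand) encodes p21, the inhibitor of cyclin-dependent kinases through which p53 arrests the cell cycle, and its upstream promoter is the one printed above. In blastocysts it measured 82.6, 70.1 and 97.4 CPM in MZ_KO 2, 6 and 7, against 11.4, 12.3, 11.7 and 10.7 in M_KO. It measured 43.3, 18.8 and 74.5 in WT_flfl and 7.65, 18.5, 7.02 and 72.5 in het. MZ_KO stood far above M_KO without overlap, and the M_KO embryos were close together. WT_flfl 9 and het 8 reached the MZ_KO range, so both control groups overlapped MZ_KO. Cdkn1a rose by 2.74 ± 0.59 on the log2 scale from M_KO to MZ_KO (adjusted p = 0.00665) and was 2.24 ± 0.59 higher in MZ_KO than in het (adjusted p = 0.0156). The difference from WT_flfl, 1.05 ± 0.63, did not pass (adjusted p = 0.297). The call against het was lost without MZ_KO 2 (adjusted p = 0.0521), without het 6 (0.0516) and without both WT_flfl 1 and het 6 (0.0664). The difference itself ranged from 1.85 without het 6 to 2.92 without het 8 (adjusted p = 5.62e-04), the het embryo with the most Cdkn1a RNA, while the call against M_KO held in all 13 alternatives run.

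In morulae Cdkn1a did not separate the groups. It measured 90.4, 90.5 and 145 CPM in het, 148, 104, 225 and 81.9 in del, and 52.0 to 172 in MZKO with a median of 100.1. MZKO spanned the het range on both sides, and the log2 differences were −0.16 ± 0.40 against het (adjusted p = 0.950) and −0.45 ± 0.36 against del (0.774). Its mean per kilobase of exon was 32.7 CPM over the 13 morulae and 10.8 over the 14 blastocysts, a difference that cannot be told apart from sequencing batch. The MZ knockout effect against het was 2.39 ± 0.75 larger on the log2 scale in blastocysts than in morulae, which did not pass (adjusted p = 0.0938) and passed in 1 of 23 alternatives, without blastocyst het 8 (3.08, adjusted p = 0.00972). A provisional transcript on the other strand, AC167363.2, lies within Cdkn1a and reached at most 3.62 CPM in a morula, and without strand its reads cannot be told apart from those of Cdkn1a.

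Ccng1 (ENSMUSG00000020326, chr11:40748552-40755311, minus strand) encodes cyclin G1, a p53 target that recruits a phosphatase to Mdm2. In blastocysts it measured 32.7, 63.1 and 60.4 CPM in MZ_KO and 43.0, 43.2, 72.0 and 39.6 in M_KO, against 91.0, 73.3 and 151 in WT_flfl and 44.8, 53.8, 51.5 and 128 in het. MZ_KO and M_KO both lay below the 3 WT_flfl embryos and overlapped het, in which het 8 stood apart. The difference of MZ_KO from WT_flfl was −0.99 ± 0.38 and did not pass (adjusted p = 0.0961). In morulae het 1 held 227 CPM against 48.6 and 56.7 in the other het embryos. Del measured 56.4, 37.7, 127 and 5.81, and MZKO 23.3 to 74.8 with a median of 32.4. MZKO 1, like het 1 an embryo rich in oviduct RNA, was the highest of its group, and MZKO against het gave −1.26 ± 0.69 (adjusted p = 0.664). Without het 1 it was −0.57 (adjusted p = 0.776), and without both het 1 and MZKO 1 it was −0.78 (0.683). Del 4, at 127 CPM, was higher than MZKO 1, and the part of oviduct RNA in Ccng1 was not tested. The lowest morula, del 6, is the embryo with the fewest reads, and its value rests on 10 reads.

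Gtse1 (ENSMUSG00000022385, chr15:85859745-85876573, plus strand) encodes a protein of the G2 and S phases that, in human cells, binds p53 and carries it out of the nucleus, so it is both a target and a restraint. It measured 14.5, 26.7 and 37.8 CPM in MZ_KO blastocysts and 36.6, 31.0, 33.2 and 47.9 in M_KO. It measured 61.9, 67.9 and 99.9 in WT_flfl and 59.8, 64.9, 65.0 and 115 in het. All 7 embryos of MZ_KO and M_KO lay below all 7 of WT_flfl and het, and MZ_KO overlapped M_KO. The first 7 are the blastocysts of prefix C7 and the other 7 those of prefix N89, so genotype and prefix cannot be told apart in that split. Gtse1 fell by 1.57 ± 0.33 on the log2 scale against WT_flfl (adjusted p = 0.00554) and by 1.54 ± 0.31 against het (0.00300). The difference from M_KO, within prefix C7, was −0.56 ± 0.31 and did not pass (adjusted p = 0.266). The calls against WT_flfl and het held in all 13 and 14 alternatives run. In morulae Gtse1 measured 49.5, 31.8 and 54.4 CPM in het, 68.6, 49.9, 16.8 and 47.0 in del, and 10.9 to 64.4 in MZKO with a median of 32.4. These groups overlapped, and MZKO gave −0.62 ± 0.52 against het (adjusted p = 0.817) and −0.51 ± 0.47 against del (0.809). The difference between the stages in the effect against het was −0.92 ± 0.64 and did not pass (adjusted p = 0.476).

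Sesn1 (ENSMUSG00000038332, chr10:41809935-41908424, plus strand) and Trp53inp1 (ENSMUSG00000028211, chr4:11156431-11174379, plus strand) act in stress responses: sestrin 1 restrains the growth kinase complex mTORC1, and the Trp53inp1 protein supports p53 phosphorylation and autophagy. In blastocysts Sesn1 measured 36.7, 25.5 and 36.7 CPM in MZ_KO, 18.6, 29.9, 21.02 and 39.3 in M_KO, 42.7, 23.9 and 9.74 in WT_flfl, and 33.2, 25.4, 82.2 and 22.9 in het. MZ_KO lay within the range of each other group, with adjusted p of 0.494 against WT_flfl, 0.879 against het and 0.722 against M_KO. In morulae it ran from 1.61 CPM in het 7 to 76.3 in het 1, and both ends were in the het group. A transcript on the same strand, 9930024M15Rik, overlaps Sesn1 and reached at most 7.85 CPM in a blastocyst and 19.7 in a morula.

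Trp53inp1 measured 17.95, 34.9 and 26.98 CPM in MZ_KO blastocysts against 2.79, 11.6, 1.66 and 6.22 in M_KO. It measured 11.998, 6.96 and 26.4 in WT_flfl and 6.53, 8.39, 9.39 and 22.9 in het. MZ_KO lay above M_KO without overlap, and WT_flfl 9 and het 8, the same control embryos that were high in Cdkn1a, reached into the MZ_KO range. Trp53inp1 rose by 2.28 ± 0.58 from M_KO to MZ_KO (adjusted p = 0.0182). That call was lost in 5 of 13 alternatives, under voom (adjusted p = 0.0784) and without M_KO 1 (0.0507), M_KO 4 (0.0506), MZ_KO 6 (0.0709) or MZ_KO 7 (0.0504). Against WT_flfl the difference was 0.91 ± 0.62 (adjusted p = 0.360) and against het 1.21 ± 0.58 (0.161). In morulae it measured 56.5, 21.9 and 14.02 CPM in het, 59.7, 35.7, 78.6 and 7.55 in del, and 18.1 to 78.4 in MZKO with a median of 52.4. The groups overlapped, and MZKO against het gave 0.83 ± 0.62 (adjusted p = 0.782), or 1.37 without het 1 (0.379).

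**Figure D3:**
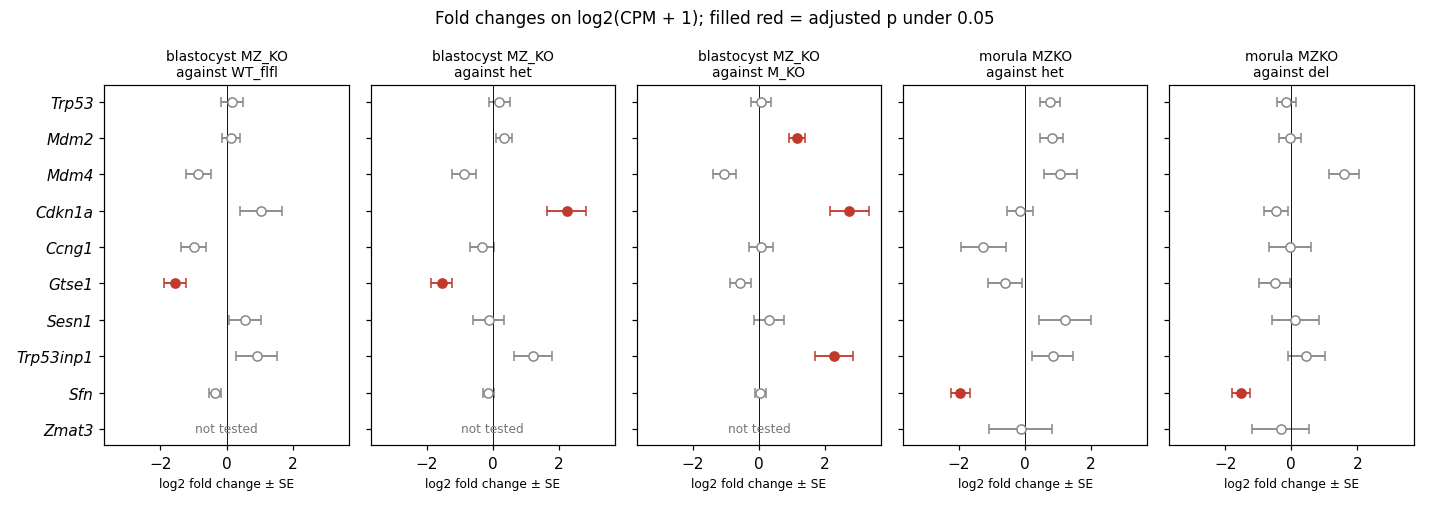
Log2 fold change and SE of each gene on log2(CPM + 1) in the 3 blastocyst comparisons of MZ_KO and the 2 morula comparisons of MZKO, with filled red points where the adjusted p was under 0.05. Gtse1 is red to the left against WT_flfl and het, Mdm2, Cdkn1a and Trp53inp1 are red to the right against M_KO, Cdkn1a is red against het, and Sfn is red to the left in both morula panels.

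Sfn (ENSMUSG00000047281, chr4:133600556-133602168, minus strand) encodes 14-3-3 sigma, an epithelial adaptor that, in human cells, holds the mitotic kinase complex in the cytoplasm after p53 induces it. It was the member with the most RNA per exon length, at a mean of 288 CPM per kilobase in blastocysts and 363 in morulae, where Trp53, the next, had 26.5 and 38.1. In morulae it measured 629, 1313 and 1161 CPM in het 1, 5 and 7 and 632, 818, 726 and 763 in del 2, 3, 4 and 6. In MZKO it measured 142 at the lowest, 267 at the median and 369 at the highest. The highest MZKO embryo lay below the lowest embryo of both other groups, and het and del overlapped each other. Sfn fell by 1.96 ± 0.29 on the log2 scale against het (adjusted p = 0.00148) and by 1.53 ± 0.27 against del (0.0128), while del minus het was −0.43 ± 0.32 (0.999).

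The call against het held in all 16 alternatives run. The call against del was lost in 4 of 18, under voom (adjusted p = 0.0981) and without del 3 (0.0670), del 4 (0.0560) or del 6 (0.0613). Without MZKO 1 and het 1, the morulae with the most oviduct RNA, Sfn was −2.12 against het (adjusted p = 5.64e-05) and −1.37 against del (5.67e-04). Trophectoderm markers, of the outer epithelium that forms next, overlapped between the groups as a sum: 10 genes summed to 381 to 1310 CPM in MZKO, 265 to 837 in del and 799 to 1453 in het. Of the 8 tested, 0 passed against het or del, and Elf5 was at 0 in all morulae. Cdx2, 1 marker picked after its values were seen, lay at 8.30 to 14.9 CPM in MZKO, 0 to 16.3 in del and 20.1 to 76.0 in het. The del embryos had a summed level overlapping that of MZKO and 632 CPM or more of Sfn. The part of these markers in the Sfn result was not tested.

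In blastocysts Sfn lay at 379 to 479 CPM in MZ_KO, 339 to 484 in M_KO, 519 to 561 in WT_flfl and 357 to 604 in het. MZ_KO embryos lay below the WT_flfl embryos and overlapped het, and the difference from WT_flfl of −0.35 ± 0.18 did not pass (adjusted p = 0.213). The test of the difference between stages compared MZ knockout minus het in blastocysts (−0.14) with the same in morulae (−1.96), each within its own table. Sfn was the only 1 of 9 members to pass, at 1.83 ± 0.35 (adjusted p = 0.00552), where 138 of 8572 genes (1.61%) passed, and it kept the call in all 23 alternatives run. Stage and sequencing batch cannot be told apart, and neither can MZ knockout and title prefix in these contrasts with het.

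Zmat3 (ENSMUSG00000027663, chr3:32334792-32366014, minus strand) encodes a zinc finger protein that binds RNA and steers splicing. It was the lowest member per exon length, at 0.256 CPM per kilobase in blastocysts and 0.620 in morulae. It ranged from 0.144 to 5.67 CPM in blastocysts, where no embryo reached the 10 CPM of the filter, and from 0.235 to 18.1 in morulae. The groups overlapped at both stages, and in no comparison did Zmat3 pass, in morulae or with the filter lowered to 1 CPM in blastocysts (adjusted p of 0.816 to 1.0).

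Single embryos within the control groups were the highest of their group in several members at once. How often they were highest over all genes was not counted, so these ranks are not shown to be particular to the p53 genes. In blastocysts het 8 was the highest het embryo in 7 of the 10 genes and the highest of all 14 in 3 of them, and WT_flfl 9 was the highest WT_flfl embryo in 7 of 10. Het 8 held the least haemoglobin RNA of the blastocysts, a summed 26.4 CPM, and the most reads, 27884350. Over all 27 embryos, centred within each table, Cdkn1a (SD 1.05 on the log2 scale), Zmat3 (1.04) and Trp53inp1 (1.04) varied most and Trp53 (0.47) least. The genes whose centred profile lay closest to Cdkn1a were Ppp1r14a, Gm38100 and Icam4, with root mean square differences of 0.70, 0.73 and 0.74 on the log2 scale, where the median over 8571 genes was 1.17. Closest to Trp53inp1 were Slc44a2 (0.70), Tab3 (0.72) and Btbd9 (0.74), and closest to Zmat3 were Tmem63b (0.79), Yeats2 (0.81) and Tcn2 (0.83).

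Pooled, the genes of 5 other p53 lists moved in both directions in MZ_KO blastocysts, at a share close to that of genes at large. The single lists differed in share and direction, as given below. Over all genes 4.84% rose and 8.36% fell against WT_flfl, 7.02% and 10.8% against het, and 3.74% and 8.09% against M_KO. Of the 93 tested, 6 rose and 5 fell against WT_flfl, which is 11.8% where 13.2% of all genes passed. Against het 7 rose and 6 fell (13.98% against 17.9%), and against M_KO 6 rose and 5 fell (11.8% in the lists and over all genes). Of 11 tested targets of cell death 0 rose and 2 fell against WT_flfl, at a list median of 0.07 on the log2 scale against −0.05 over all 9585 genes. Apaf1, the scaffold of the caspase-activating apoptosome, fell from 45.8 ± 8.95 (SD, n = 3) to 14.6 ± 9.81 CPM (n = 3; adjusted p = 0.0143). Pidd1, which builds a caspase-2 platform, fell from 25.8 ± 2.46 to 5.90 ± 4.74 CPM (adjusted p = 0.0266). Apaf1 was also lower in MZ_KO than in het (adjusted p = 0.0332) and M_KO (0.0478), where it was the 1 gene of its list to pass.

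Of 18 tested targets of arrest and repair 0 rose and 1 fell against WT_flfl (list median 0.10), the spindle gene Psrc1 (−0.90, adjusted p = 0.0260). Against M_KO 2 rose and 0 fell: the kinase Plk2, from 2.89 ± 3.02 (n = 4) to 30.3 ± 12.3 CPM (n = 3; adjusted p = 0.01005), and the transcriptional cofactor Sertad1, from 39.4 ± 13.9 to 88.8 ± 23.1 CPM (adjusted p = 0.0297). Against het 2 rose, Sertad1 (1.26, adjusted p = 0.0153) and Rps27l (0.58, 0.0356), and 1 fell, the damage sensor Xpc (−0.95, 0.0455). Plk2, like Cdkn1a, was low in M_KO.

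Of 14 tested targets of metabolism, secretion and redox control 1 rose and 2 fell against WT_flfl, at a list median of −0.73. Tigar, which lowers glycolytic flux, was 383 ± 66.6 CPM in MZ_KO against 205 ± 19.02 in WT_flfl (0.89 on the log2 scale, adjusted p = 0.0106) and also rose against het (1.03, 0.00217). The lysosomal fucosidase Fuca1 fell from 155 ± 34.8 to 49.7 ± 17.5 CPM (adjusted p = 0.00164), and the tetraspanin Cd82 fell by 2.70 on the log2 scale (0.00731). Fuca1 was lower also against het (−1.49, adjusted p = 0.00174) and M_KO (−1.26, 0.00670), and Fdxr, a mitochondrial reductase, was lower against M_KO (−1.49, 0.0160).

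The next list held 26 tested genes that act on p53, such as its kinases, deubiquitinases and the ribosomal proteins that bind Mdm2. By limma 0 of them rose and 0 fell against WT_flfl, where 13.2% of all genes passed. At an unadjusted p under 0.05, 3 were higher and 1 lower, where 28.7% of all genes passed, and the list median was 0.05. Rpl23, one of those ribosomal proteins, rose against het (0.54, adjusted p = 0.0168) and M_KO (0.47, 0.0435), and the damage kinase Atr was lower against M_KO (−1.65, 0.0197). The DREAM complex, through which p21 is known to repress transcription, was represented by 24 G2 and mitosis genes. Of these, 5 rose and 0 fell against WT_flfl, where 4.84% of all genes rose and 8.36% fell, at a list median of 0.06. The mitotic kinase Aurka rose from 496 ± 31.1 to 803 ± 89.7 CPM (adjusted p = 0.00225), the phosphatase Cdc25c by 0.95 (0.0119) and the kinase Nek2 by 0.89 (0.0127) on the log2 scale. Against het 3 rose and 2 fell, the latter Ccnb2 (−1.10, adjusted p = 0.00260) and Cdc20 (−0.66, 0.00307). Against M_KO 3 rose and 1 fell, where 3.74% of all genes rose and 8.09% fell. The DREAM list held Aurka, Cdc25c and Ube2c among the risen genes in each of the 3 comparisons, which share the MZ_KO embryos.

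**Figure D4:**
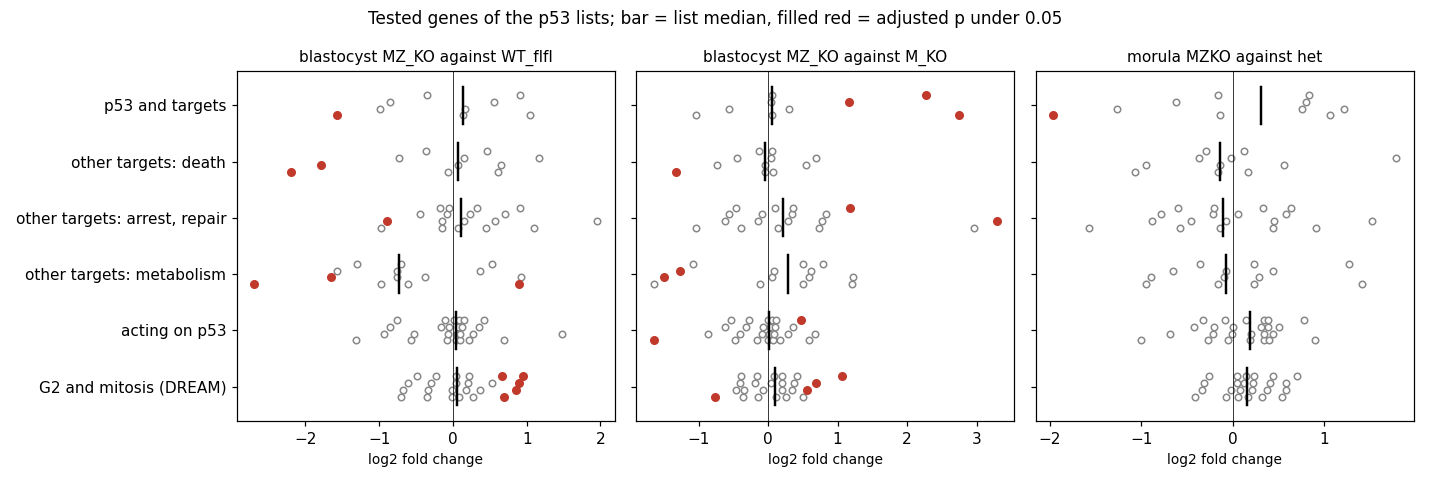
Log2 fold change of each tested gene of the members and of the 5 other p53 lists in 3 comparisons, with the list median as a bar and genes of adjusted p under 0.05 in red. Red points lie on both sides of 0 in MZ_KO blastocysts, and in the morula panel Sfn is the only red point.

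In morulae 0 genes of these 5 lists passed in MZKO against het, MZKO against del or del against het by limma. At an unadjusted p under 0.05 the counts were 2 higher and 2 lower, 1 higher and 4 lower, and 1 higher and 0 lower of 91 genes tested, where 8.66%, 8.25% and 5.05% of all genes passed in either direction. Markers of trophectoderm and primitive endoderm also moved in MZ_KO blastocysts, and markers of epiblast are not described here. Of 9 tested trophectoderm markers 5 fell (Eomes, Fgfr2, Id2, Krt8 and Tspan8) and 0 rose against each of WT_flfl, het and M_KO, where 8.36%, 10.8% and 8.09% of all genes fell. The 10 markers summed to 3998 to 5375 CPM in MZ_KO, 6282 to 10400 in M_KO, 7846 to 8151 in WT_flfl and 5125 to 8461 in het. Of 8 primitive endoderm markers 3 fell against WT_flfl and M_KO and 4 against het. The part of these markers in the changes of p53 targets was not tested.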

How the data were processed

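Per the labels' protocols, libraries of single embryos came from a SMART-Seq kit, which does not mark strand, and were run on a HiSeq instrument. The submitters' processing notes name RSEM 1.3.1, Bowtie2 2.2.9, cutadapt 1.14 and GRCm38 (mm10). What each tool did, and whether strand was used, these notes do not say. For each stage the authors deposited log2 values in 1 table, which behaved as log2 CPM with an offset of 0.5 reads on a scaled library size. Undoing the log2 gave whole reads for 100% of values (tolerance 0.01 reads). Of 28 labelled samples 27 had a column; a repeat library of blastocyst het 3 was not analysed here. Among the 27 samples with a column, all blastocysts carry one sequencing batch in the labels and all morulae the other. The repeat library of blastocyst het 3 carries the batch of the morulae.

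The design had assumed linear values, so CPM was recovered and tested as log2(CPM + 1), which understates the change of low genes. Genes that reached 10 CPM in 3 or more embryos (9585 in blastocysts, 9953 in morulae) entered a limma fit (3.58.1, R 4.3.3) of a stage's groups together, with moderated trended variances. Tests were two-sided and adjusted by Benjamini-Hochberg over the genes tested. The stage difference used 8572 genes that passed in both tables. The scripts were checked on simulated data. Positions and exon lengths came from GENCODE M21, promoters from RefSeq, and figures from Python 3.11.15 and matplotlib 3.10.9. The text names all 10 members, up to 3 genes per other list and comparison by smallest adjusted p, and 3 nearest genes for the 3 most variable members; Ube2c and the cell type markers were named beyond that rule after their values were seen. The members and lists were chosen with earlier results of these data known. Alternatives were another pseudocount (0.5 or 5 CPM), a filter of 1 CPM, unscaled read totals, voom on the recovered reads, only the compared groups, a replicate block and leaving out embryos; leaving out the embryos with the most haemoglobin or oviduct RNA was added after seeing the data. SDs and SEs cover the spread between these embryos, and counts of reads are not independent molecules.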

Additional observations from a re-analysis of the deposited data

Results flagged for a closer look

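In 40 sets of 1 member in 1 group of 4 to 6 embryos, a single embryo far from the others was looked for, and 3 sets had one, where chance gives about 1 in 20. Ccng1 measured 72.0 CPM in blastocyst M_KO 4, against 39.6 to 43.2 in the other M_KO embryos. Ccng1 measured 128 CPM in blastocyst het 8, against 44.8 to 53.8 in the other het embryos. Gtse1 measured 115 CPM in the same het 8, against 59.8 to 65.0. Het 8 also held the highest het value of Cdkn1a, at 72.5 CPM against 7.02 to 18.5, and of Trp53inp1, at 22.9 against 6.53 to 9.39.

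The difference in Sfn between MZ knockout and het embryos differed between the stages by 1.83 on the log2 scale in a test of the difference itself. Sfn was lower in 6 of 6 MZKO morulae than in each het morula and overlapped het in blastocysts. At both stages the MZ knockout and het embryos also differ in title prefix, and the stages differ in sequencing batch. Knockout, prefix and batch cannot be told apart here.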

How the results depend on the processing

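No member difference that was called in any setting changed direction in the alternatives run. For members never called, direction was not followed across the alternatives. The calls of Cdkn1a and Mdm2 against M_KO held in all 13, of Gtse1 against WT_flfl in 13 and against het in 14, and of Sfn against het in morulae in 16 and between stages in 23. Their log2 fold changes ranged from 2.41 to 2.86 (Cdkn1a), 0.96 to 1.37 (Mdm2), −1.87 to −1.21 (Gtse1 against WT_flfl) and −2.29 to −1.76 (Sfn against het). Members called ranged, over embryos left out in turn, from 1 to 2 for MZ_KO against WT_flfl (2 without WT_flfl 1), 1 to 2 against het (1 without MZ_KO 2 or het 6), 2 to 3 against M_KO, 0 to 1 for MZKO against del (0 without del 3, 4 or 6) and 1 to 2 for the stage difference (2 without blastocyst het 8). Members called also became 1 for MZ_KO against het without WT_flfl 1 and het 6, and 0 for MZKO against del under voom.

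Counts over all genes moved more. With embryos left out in turn they ranged from 783 to 1153 for MZ_KO against WT_flfl (783 without WT_flfl 7 and 828 without WT_flfl 1), 1072 to 1603 against het (1072 without MZ_KO 2), 726 to 1112 against M_KO (726 without MZ_KO 2 and 727 without M_KO 1), 0 to 1 for het against WT_flfl (1 without WT_flfl 1), 29 to 87 for MZKO against het (29 without het 7 and 87 without MZKO 1), 0 to 3 for del against het (3 without het 1) and 53 to 708 for the stage difference (53 without morula het 7 and 708 without morula het 1). Without WT_flfl 1 and het 6 the counts were 787 against WT_flfl, 1013 against het, 61 for the stage difference and 1 for M_KO against WT_flfl. Without morula MZKO 1 and het 1 they were 761 for the stage difference and 4 for del against het. Voom gave 24 genes for MZKO against het, 2 against del, 0 for del against het and 218 for the stage difference. Unscaled read totals gave 228 for the stage difference and 2 for del against het, which had 0 with a pseudocount of 0.5 CPM, a filter of 1 CPM or only the compared groups. The causes were not tested.

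Embryo numbers were checked for pairing in the comparisons that share 2 or more, M_KO with het and MZKO with del, and did not meet the rule for pairs: deviations of same-numbered embryos correlated at −0.14 and −0.12 for M_KO and het, and between −0.12 and 0.14 for MZKO and del, where 2 of 4 numbers correlated best with themselves. The fit with a replicate block called 5 genes for M_KO against het and 21 for MZKO against del, with 0 and 1 members. No paired analysis was possible because of too few shared numbers in the other comparisons between prefixes, MZKO with het in morulae among them. Depth is lowest in del 6, at 1635553 reads.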
